A study of Mus musculus with 9 samples.

Results

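Adult olfactory bulb stem cells (aOBSC) grown as neurospheres with FGF-2 and EGF added every 4 days (C4) were compared with aOBSC neurospheres that received the same factors every day (Ctr). The comparison took in all probe sets of the arrays other than the Affymetrix control probe sets, 45037 of 45101, on 6 of the 9 arrays of the series, 3 of C4 and 3 of Ctr. The remaining 3 arrays, of neurospheres fed every 2 days (C2), entered the fit to estimate the spread, and their values stand beside those of C4 for a few groups of genes. All conditions shared the DMEM/F12-N2 medium, which was not replaced during the growth period, and the dose of 20 ng/ml of each factor, and RNA was taken after 7 days in culture. The cells came from adult mice, CD1 or C57Bl/6, of 7 and 15 months per the study's text. Neither strain nor age was given per array. Before the assay the cells had spent 2 passages in their condition, and C4 neurospheres had gone 3 days without an addition when RNA was taken. The interval between additions, the total amount of factor added and the time since the last addition therefore cannot be told apart. A neurosphere is a floating ball of stem cells, progenitors and some differentiating progeny, so each array is the average of a mixed culture. The series describes the 3 arrays of a condition as biological replicates, but what separates them (mouse, culture or day) is not stated, and p-values measure the spread between these samples.

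FGF-2 and EGF bind receptor tyrosine kinases that activate the RAS-ERK and PI3K-AKT cascades, which keep neural stem cells dividing and oppose differentiation. ERK signalling induces its own inhibitors, the sprouty, SPRED and DUSP proteins, while Notch receptors and the BMP-induced Id proteins act beside it to hold progenitors back or to steer them to astrocytes. Growth factor supply is also tied to metabolism, through glucose uptake and glycolysis, through the transcription factor HIF-1, and through ATF4, the effector of the integrated stress response, which raises genes of amino acid uptake, amino acid synthesis and tRNA charging.

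In C4 neurospheres many genes of glycolysis, the hypoxia response, the integrated stress response and tRNA charging were lower, and many genes of fatty acid oxidation and of astrocytes were higher. Of 18193 genes, each read from the probe set with the highest signal averaged over the 9 arrays, 1673 (9.2%) passed an adjusted p of 0.05 in limma, 1027 higher (5.65%) and 646 lower (3.55%) in C4. On the level of probe sets, 2833 passed (6.29%), 1702 higher (3.78%) and 1131 lower (2.51%), and 312 (0.693%), whether called or not, had a difference of 1 or more. Most differences were small: the median size was 0.44 on the log2 scale among the genes that rose and 0.46 among those that fell, and 94 and 61 of them differed by at least 1, that is by a doubling or a halving. None of the called genes had overlapping arrays, but neither did 22.5% of all genes. When 1 of the 6 arrays was left out in turn, 895 genes (4.92%) passed in every fit, 538 higher (2.96%) and 357 lower (1.96%). The lowest number of genes, 1087, passed without Ctr replicate 2. Lists below are given with their number of calls and, for those with named changes, the number among them that passed in all 6 of these fits. With the Ctr and C4 arrays alone 974 genes passed and with robust eBayes 835, and a named gene whose call was lost in either setting is marked beside its value, unless its call was already lost without a single array. With each array rescaled to its own mean over expressed probe sets, 51.2% of 2074 called genes were higher in C4, against 61.4% of the 1673.

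**Figure D1:**
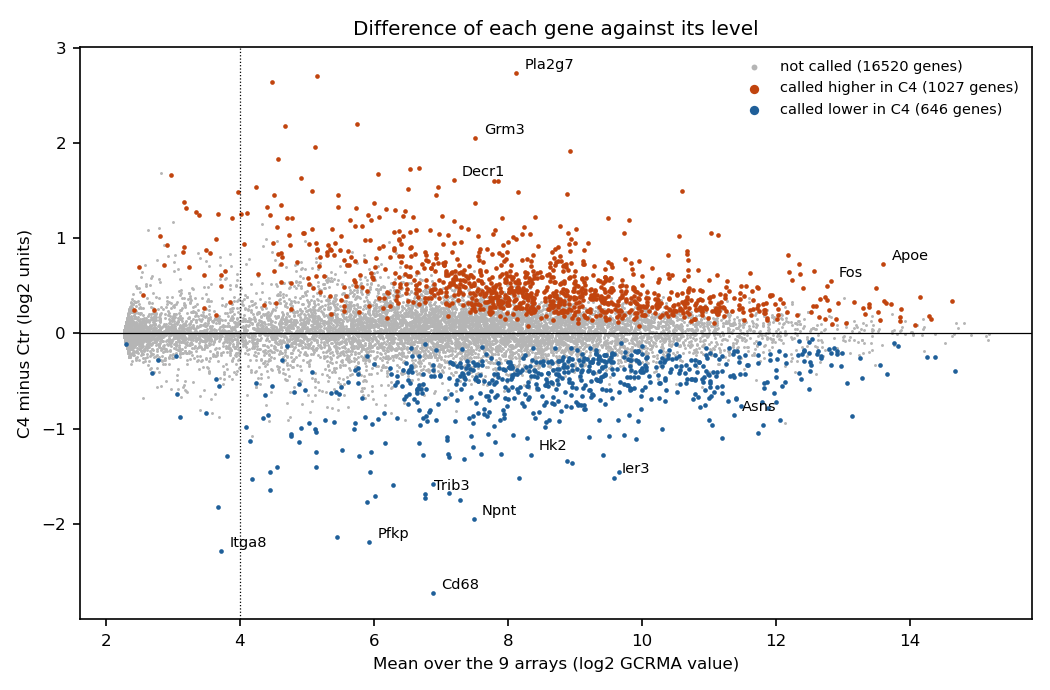
Difference between the C4 mean and the Ctr mean (log2 units, vertical axis) against the mean over the 9 arrays (log2 GCRMA value, horizontal axis) for 18193 genes, with the 1027 genes called higher in red, the 646 called lower in blue, the rest in grey, and a dotted line at the value 4 under which signals were taken as near the floor. Few genes to the left of the dotted line were called, and the differences of 2 or more, up to 2.73 in size, lay in the lower and middle range of levels.

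Low signals limited what could be called. A probe set with a mean under 4 on the log2 scale was taken as near the floor, and of 8846 genes with such a mean 28 rose and 12 fell (0.452%), whereas 35.4% of 268 genes with a mean of 12 or more were called. Among 9434 genes over the floor in Ctr or C4, 1649 (17.5%) were called, 10.7% higher and 6.75% lower, with a median difference of 0.046 over these genes. For a list below whose members mostly lay over the floor, this share is the closer background. Arrays of the conditions did not overlap in 42% of these genes. Identical values on at least 2 arrays of a condition occurred in 24.4% of the genes over the floor and in 7.76% of those called. Further probe sets of the called genes with a mean of at least 4 differed in the same direction in 1204 of 1429 cases.

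The labelled identity was checked on marker genes. Of 8 markers of neural stem and progenitor cells, 7 were over the floor on these arrays, and their summed signal, in linear GCRMA units, was 31722 to 32274 in Ctr and 36591 to 38636 in C4. Astrocyte markers were present as well, 5 of 6, whereas Gfap, the intermediate filament of mature astrocytes, was near the floor. Markers of endothelial cells (0 of 5 over the floor), olfactory ensheathing cells (0 of 3 measured) and myelinating oligodendrocytes (Mbp and Mog) were near the floor. Of 8 markers of microglia and macrophages only Cd68, a lysosomal membrane protein, was over the floor. Their summed signal was 245 to 296 in Ctr and 75 to 81 in C4, while Aif1, Itgam, Csf1r, Cx3cr1, Ptprc, C1qa and Tyrobp were near the floor in both conditions. In such bulk samples, fewer cells of a type and less RNA per cell cannot be told apart.

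**Figure D2:**
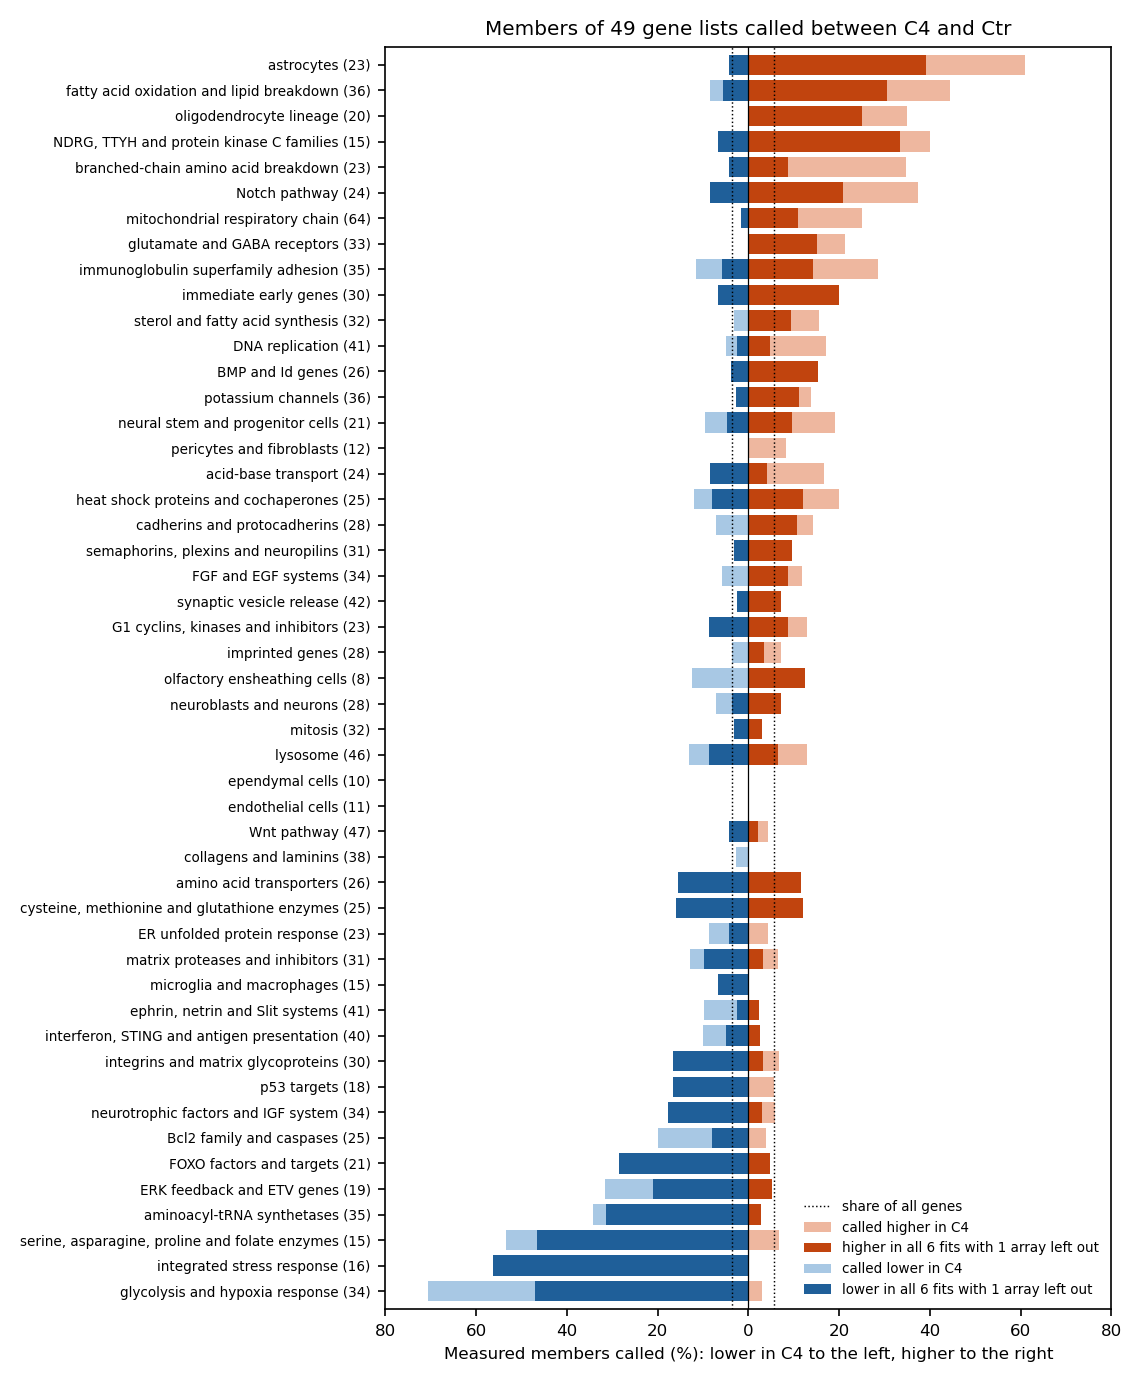
Share of the measured members of each of 49 gene lists that were called higher (red, to the right) or lower (blue, to the left) in C4, in percent of the members measured, whose number follows each name; dark parts were called in all 6 fits with 1 array left out, and dotted lines mark the shares over all genes, 5.65% higher and 3.55% lower. Glycolysis and hypoxia, the integrated stress response and amino acid synthesis lie at the lower end, and astrocytes and fatty acid oxidation at the upper end.

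Glycolysis and the hypoxia response held the largest share of decreases among the 49 lists. Of 34 measured genes, 31 of them over the floor, 24 fell and 1 rose (73.5% called, against 9.2% of all genes and 17.5% of genes over the floor). In all 6 fits 16 of the decreases held, and the median difference was -0.406 against 0 over all genes. Pfkp, the platelet isoform of phosphofructokinase, which catalyses the committed step of glycolysis, stood at 6.79, 7.04 and 7.05 on the Ctr arrays and 4.75, 4.81 and 4.76 on the C4 arrays. This is a 4.55-fold decrease (log2 difference -2.19, SE 0.088, adjusted p = 1.23e-04), with a gap between the conditions far wider than the spread on either side. Hk2, the hexokinase that traps glucose in the cell and is bound to mitochondria, read 8.78, 8.92 and 9.04 on the Ctr arrays and 7.69, 7.64 and 7.59 on the C4 arrays. It fell by 1.27 (SE 0.065, adjusted p = 2.34e-04).

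The glucose transporters Slc2a1 (GLUT1) and Slc2a3 (GLUT3) fell by 0.59 (SE 0.040, adjusted p = 6.67e-04) and 0.44 (SE 0.051, adjusted p = 0.00436). Downstream enzymes fell less: Tpi1, triose phosphate isomerase, by 0.52, and Pgam1, phosphoglycerate mutase, by 0.41. Pfkl, Pkm, Ldha and Pgk1 differed by -0.34, -0.23, -0.18 and -0.13, and each call was lost in 5 or 6 of the fits that left out 1 array. Ldhb, the lactate dehydrogenase subunit that favours the formation of pyruvate, was the only member of the list that rose, by 0.28 (adjusted p = 0.0298), a call lost without Ctr replicate 1, 2 or 3 or C4 replicate 2. Hk1 and Aldoa differed by -0.13 and -0.21 with overlapping arrays, and did not pass.

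Among 20 genes of the hypoxia response, 14 fell and 10 of these did so in every fit with 1 array left out. Adm, which encodes the vasodilator peptide adrenomedullin, stood at 10.06, 9.82 and 10.17 on the Ctr arrays and 8.72, 8.91 and 8.58 on the C4 arrays. It fell by 1.27 (SE 0.11, adjusted p = 0.00161). By RT-qPCR (quantitative PCR of the RNA), however, the study found no significant change of Adm between its conditions. Of the lowered genes it analysed by RT-qPCR, the study reports only Npnt and Calb1 as lower in C4. Pdk1, the kinase that shuts pyruvate dehydrogenase and so keeps pyruvate out of mitochondria, fell by 1.06 (SE 0.076, adjusted p = 7.62e-04), and Pfkfb3, which makes the allosteric activator of phosphofructokinase, fell by 0.96 (SE 0.093, adjusted p = 0.00224). Hif1a, the oxygen-regulated subunit of HIF-1, fell by 0.52 at the level of its RNA, from 12.01, 12.01 and 11.86 on the Ctr arrays to 11.43, 11.39 and 11.5 on the C4 arrays. Ero1a, the oxidase of disulfide formation in the endoplasmic reticulum (ER), fell by 0.91, Ndrg1 by 0.75, the mitochondrial protein Higd1a by 0.59, the collagen prolyl hydroxylase subunit P4ha1 by 0.50, and the mitophagy receptor Bnip3 and the mTORC1 inhibitor Ddit4 by 0.40 and 0.40. Like all called genes, these lay apart between the conditions on every array. Vegfa, the angiogenic growth factor, was lower, with a difference of -0.68 (adjusted p = 0.0128, lost without C4 replicate 2). Ankrd37, an ankyrin repeat protein, differed by -1.15 (adjusted p = 0.0252, lost without Ctr replicate 1, 2 or 3). The HIF hydroxylase gene Egln3 differed by -0.02.

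**Figure D3:**
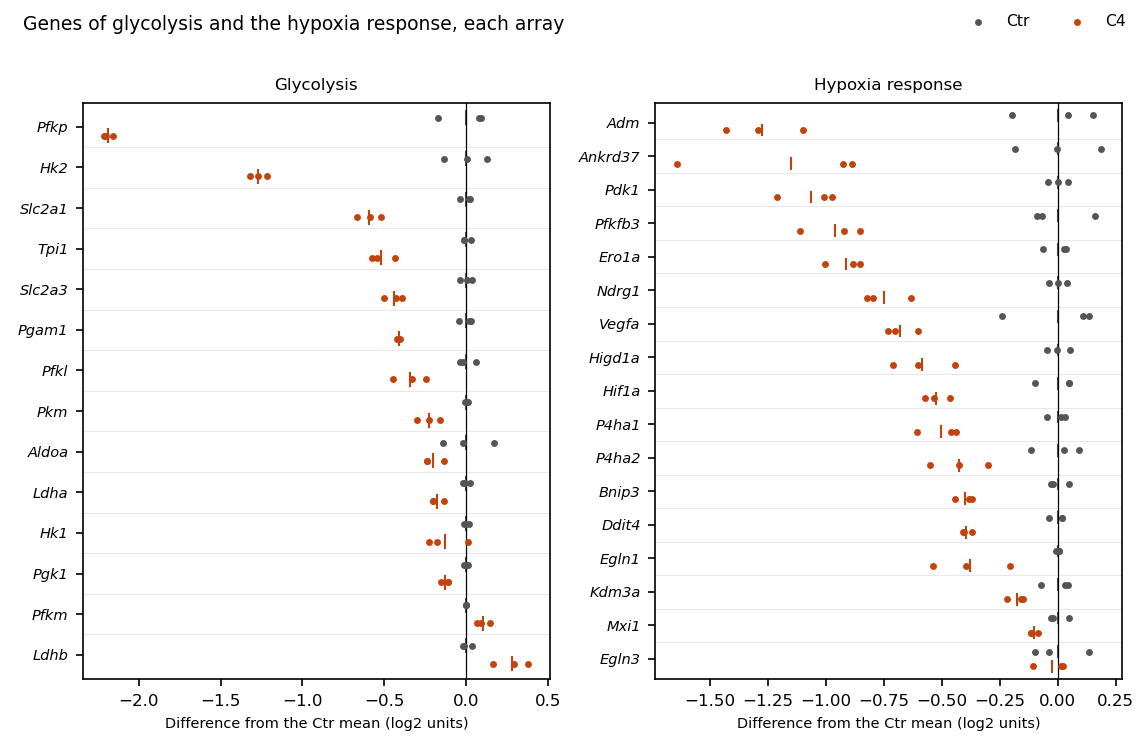
Difference of each array from the Ctr mean (log2 units, horizontal axis) for the genes of glycolysis (left) and of the hypoxia response (right) that were over the floor, with Ctr arrays in grey, C4 arrays in orange and vertical ticks at the C4 means. All C4 arrays lie to the left of all Ctr arrays for Pfkp, Hk2, Adm and Pdk1, whereas Ldhb lies to the right.

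Many genes of the integrated stress response fell. Of 16 measured members 9 fell, all of them in every fit with 1 array left out, and none rose. That is 56.2% called, against 17.5% of genes over the floor, where 15 members lay. The median difference was -0.659. Trib3, a pseudokinase induced by ATF4 and CHOP, stood at 7.05 on all 3 Ctr arrays and 5.63, 4.94 and 5.52 on the C4 arrays and fell by 1.68 (SE 0.17, adjusted p = 0.00259). Chac1, which degrades glutathione, stood at 7.56, 7.51 and 7.34 on the Ctr arrays and 6.01, 6.31 and 6.13 on the C4 arrays, a difference of -1.32 (SE 0.099, adjusted p = 9.04e-04). Nupr1, a small stress-induced chromatin protein, fell by 1.11 (SE 0.055, adjusted p = 2.09e-04), from 9.89, 9.91 and 10.01 to 8.83, 8.88 and 8.77. The lipoprotein receptor Vldlr and the transcription factor Atf5 fell by 0.91 and 0.87, the transcription factor Cebpg fell by 0.71, and the translational repressor Eif4ebp1 fell by 0.67. Ddit3, which encodes CHOP, fell by 0.30 (adjusted p = 0.0112), a call lost with the Ctr and C4 arrays alone and with robust eBayes. The message of the master regulator itself, Atf4, differed by -0.22 and did not pass (adjusted p = 0.117), nor did Atf3 (-0.23), Sesn2 (-0.13) or Ppp1r15a (-0.02).

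Factors of the ATF4 and C/EBP families bind a composite element whose core was searched as TGATGNAA on both strands in the 250 bases before each start listed by RefSeq (GRCm38.p6), with no regard to overlaps with other motifs. The core was present before 3.91% of 27025 genes. Of the members called lower, it was found in 3 of 8 genes of the stress response with a promoter in the table (37.5%), in 3 of 9 cytosolic tRNA synthetases (33.3%), and in 1 of 7 enzymes of serine, asparagine, proline and folate metabolism (14.3%), Asns. It was in none of 3 amino acid transporters called lower. Members that were not called held it too, except among the synthetases. Of these, Fgf21 and Slc7a7 differed by 0.000. GCRMA gives dim probe sets nearly equal values, so these missing calls say little. The shares in the whole lists were 5 of 15 for the stress response (33.3%, Atf3 and Fgf21 included) and 3 of 12 for the cytosolic synthetases (25%). They were 2 of 14 for the serine, asparagine, proline and folate enzymes (14.3%) and 2 of 20 for the transporters (10%), Slc7a11 and Slc7a7. Windows with the core are shown for 6 genes called lower. Each is written on the gene's own strand with the core in capitals, as TGATGNAA or as its reverse complement; for Vldlr the core lay before the later of the listed starts. Trib3, Atf5, Cebpg and Psat1 had no match to these letters in this window.
Asns (chr6:7693215-7693242, minus strand): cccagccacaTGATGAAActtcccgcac
Chac1 (chr2:119351039-119351066, plus strand): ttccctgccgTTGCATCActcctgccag
Nupr1 (chr7:126625563-126625590, minus strand): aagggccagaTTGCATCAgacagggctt
Vldlr (chr19:27216810-27216837, plus strand): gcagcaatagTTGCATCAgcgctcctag
Gars (chr6:55037961-55037988, plus strand): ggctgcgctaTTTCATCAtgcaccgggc
Tars (chr15:11399659-11399683, minus strand): aggagtcccgTTGCATCAgctggtt

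Enzymes of amino acid synthesis were lower as well. Of 15 measured enzymes of serine, asparagine, proline and folate metabolism, 8 fell, 7 of them in all 6 fits, and 1 rose, with a median difference of -0.346. That is 60% called, against 17.5% of genes over the floor, where all 15 lay. Asns, asparagine synthetase, which holds the element 23 bases before its start, read 11.48, 11.41 and 11.48 on the Ctr arrays and 10.57, 10.66 and 10.56 on the C4 arrays. It fell by 0.86 (SE 0.036, adjusted p = 1.43e-04). Mthfd2, which oxidises the folate-bound one-carbon unit in mitochondria, fell by 1.07 (SE 0.073, adjusted p = 6.67e-04), from 9.67, 9.59 and 9.66 to 8.61, 8.69 and 8.41, and its mitochondrial partners Shmt2, Aldh1l2 and Mthfd1l fell by 1.00, 0.91 and 0.82. Of the cytosolic counterparts, Mthfd1 was higher by 0.44 (adjusted p = 0.0294, lost without Ctr replicate 2 or C4 replicate 1, 2 or 3), and Shmt1 differed by -0.29 without passing. In serine synthesis Psph fell by 0.35 (adjusted p = 0.00356) and Psat1 differed by -0.48 (adjusted p = 0.0205, lost without Ctr replicate 1, 2 or 3), whereas Phgdh, the first enzyme of the pathway, differed by -0.12 with overlapping arrays. Aldh18a1, the first enzyme of proline synthesis, fell by 0.58 (adjusted p = 0.00679).

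Aminoacyl-tRNA synthetases, which charge tRNAs with their amino acids, were lower mainly in the cytosolic set. Of 19 cytosolic enzymes 12 fell, 11 of them in all 6 fits, with a median difference of -0.403, whereas none of 16 mitochondrial enzymes fell, 1 rose and their median was 0.06. Called were 63.2% of the cytosolic and 6.25% of the mitochondrial enzymes, against 17.5% of genes over the floor. Eprs, the bifunctional glutamyl-prolyl enzyme, stood at 10.52, 10.48 and 10.47 on the Ctr arrays and 9.73, 9.83 and 9.78 on the C4 arrays, a difference of -0.71 (SE 0.030, adjusted p = 1.43e-04). Nars, Iars and Mars1, for asparagine, isoleucine and methionine, fell by 0.61, 0.59 and 0.53, each with C4 arrays below all Ctr arrays, as for every gene called lower. Gars and Tars, for glycine and threonine, whose windows are shown above, fell by 0.52 and 0.36, the latter a call lost with robust eBayes. Rars2, the mitochondrial arginyl enzyme, rose by 0.46 (SE 0.060, adjusted p = 0.00666). Kars, Hars, Rars and Yars differed by -0.11, -0.14, -0.08 and -0.09 and did not pass.

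The same 3 lists stood on the other side of Ctr in the C2 neurospheres, in a comparison that uses the same Ctr arrays. For the integrated stress response the median difference of C2 from Ctr was 0.606, with 10 members higher and 1 lower (2.52% of all genes called in C2). Chac1 was 0.94 and Asns 0.61 above Ctr in C2, against -1.32 and -0.86 in C4. For the enzymes of serine, asparagine, proline and folate the median was 0.322 in C2 with 7 members higher, and for cytosolic tRNA synthetases 0.347 with 13 higher and 1 lower. Glycolysis and hypoxia genes differed in this respect: their median in C2 was -0.317, with 16 members lower.

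**Figure D4:**
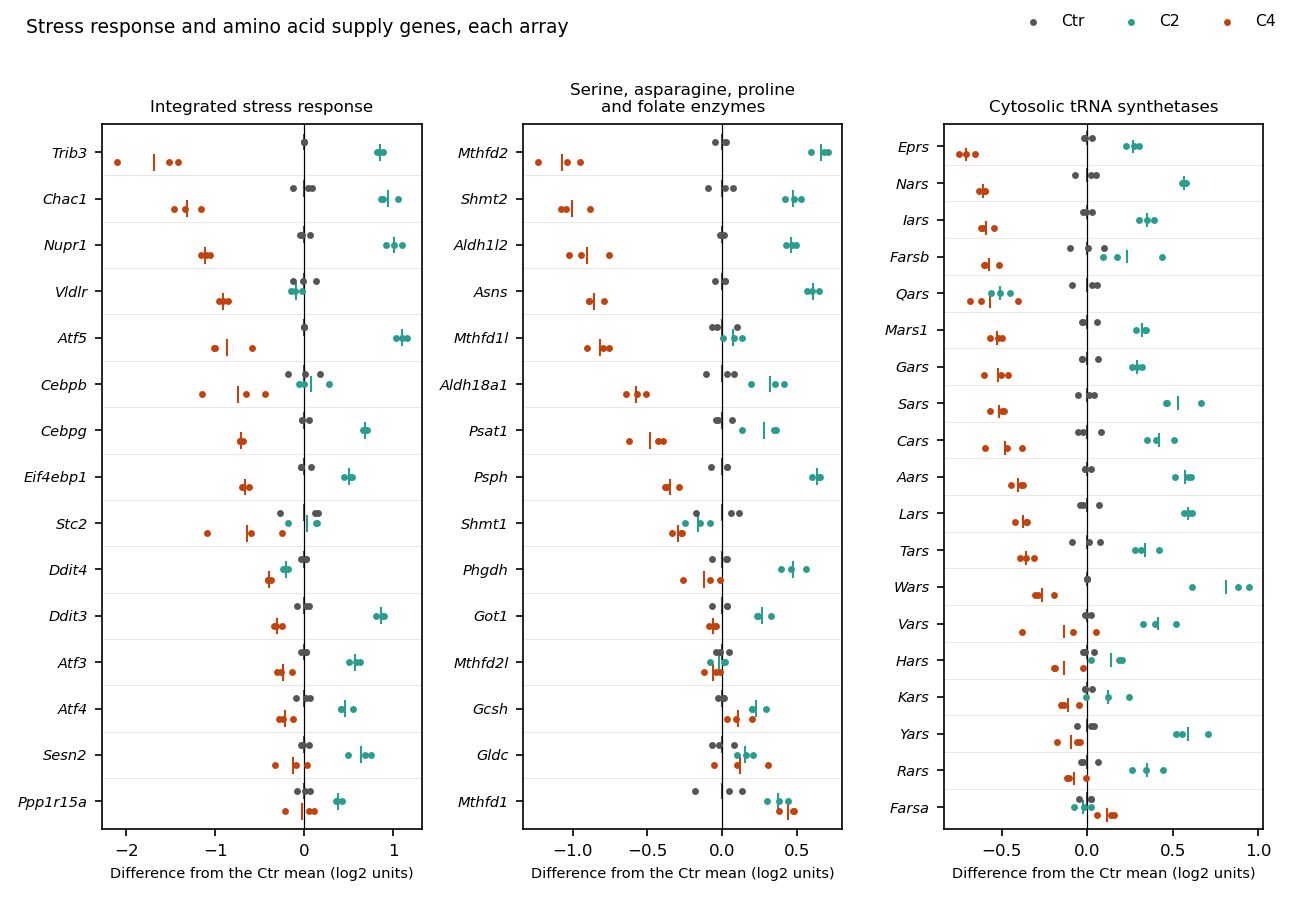
Difference of each array from the Ctr mean (log2 units, horizontal axis) for genes of the integrated stress response, enzymes of serine, asparagine, proline and folate, and cytosolic tRNA synthetases, with Ctr arrays in grey, C2 arrays in green and C4 arrays in orange and vertical ticks at the means. For Chac1, Asns, Mthfd2 and Eprs all C4 arrays lie to the left and all C2 arrays to the right of the Ctr arrays.

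Transporters of amino acids moved in both directions, 4 of 26 lower and 3 higher, all 7 in every fit with 1 array left out. Slc7a5, the light chain of the exchanger that imports large neutral amino acids such as leucine, stood at 9.36, 9.31 and 9.24 on the Ctr arrays and 8.12, 8.13 and 8.39 on the C4 arrays and fell by 1.09 (SE 0.077, adjusted p = 7.73e-04). Its heavy chain Slc3a2 fell by 0.66 (SE 0.023, adjusted p = 8.34e-05), the cationic amino acid transporter Slc7a1 fell by 0.92, and Slc38a2, an importer of small neutral amino acids, fell by 0.76. The glycine transporter Slc6a9 and the cationic transporter Slc7a2 rose by 0.85 and 0.82. Slc1a1, a carrier of glutamate and cysteine, rose by 1.48 from a Ctr mean near the floor.

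Among 25 enzymes of cysteine, methionine and glutathione metabolism, 4 fell and 3 rose, all in every fit with 1 array left out. Gclc, the catalytic subunit that limits glutathione synthesis, fell by 0.72 (adjusted p = 0.00749), and the transferase Gstm1 and the heme oxygenase Hmox1 fell by 0.62 and 0.46. The ER peroxidase Gpx8 and the transferase Gsta4, which detoxifies products of lipid peroxidation, rose by 0.76 and 0.46. Gclc and Gsta4 lost their calls with the Ctr and C4 arrays alone, which left 2 lower and 2 higher. In the breakdown of branched-chain amino acids 8 of 23 enzymes rose and 1 fell, 2 and 1 of them in all 6 fits, and the number that rose was 3 without Ctr replicate 2 or C4 replicate 2, 4 without Ctr replicate 1 or 3 or C4 replicate 1 and 5 without C4 replicate 3, and it was 3 with the Ctr and C4 arrays alone and 1 with robust eBayes. Bckdhb, a subunit of the dehydrogenase that commits the branched-chain keto acids to breakdown, rose by 0.66 (SE 0.051, adjusted p = 9.44e-04) and held in all 6 fits.

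Genes of fatty acid oxidation were higher more often than lower. Of 36 genes of oxidation and lipid breakdown, 16 rose and 3 fell, 11 and 2 of them in all 6 fits, with a median difference of 0.225. That is 52.8% called, against 17.5% of genes over the floor, where 32 lay. Decr1, the mitochondrial reductase needed for the oxidation of polyunsaturated fatty acids, stood at 6.52, 6.63 and 6.58 on the Ctr arrays and 8.15, 8.27 and 8.13 on the C4 arrays. It was 3.05-fold higher in C4 (log2 difference 1.61, SE 0.080, adjusted p = 2.09e-04). Acaa2, the thiolase that ends each round of mitochondrial oxidation, rose by 0.99 (SE 0.044, adjusted p = 1.56e-04), from 8.45, 8.53 and 8.59 to 9.5, 9.5 and 9.55. The acyl-CoA dehydrogenases Acadl and Acadm rose by 0.73 and 0.37, the isomerase Eci2 by 0.57, and Etfdh, which passes electrons from these dehydrogenases to ubiquinone, by 0.32. Cpt1a, the carnitine transferase that controls the entry of fatty acids into mitochondria, rose by 0.42 (adjusted p = 0.00693), although the mean over all its probe sets differed by -0.015. The acyl-CoA synthetases Acsl4 and Acsl5, which activate fatty acids for any use, moved the other way, by -1.09 and -0.83 (adjusted p = 0.00156 and 0.00642).

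Of 12 genes of lipid breakdown 4 rose, all in every fit with 1 array left out. Mgll, monoacylglycerol lipase, stood at 6.38, 6.4 and 6.38 on the Ctr arrays and 7.81, 8.04 and 7.9 on the C4 arrays and rose by 1.53 (SE 0.077, adjusted p = 2.12e-04). The probe set that replaces it when names ending in _s_at, _x_at or _a_at are left out lay at the floor. Plin2, the coat protein of lipid droplets, rose by 0.54 (adjusted p = 0.00989). Synthesis changed less: 5 of 32 genes of sterol and fatty acid synthesis rose and 1 fell. That is 18.8% called, near the 17.5% of genes over the floor, where all 32 lay. Of the increases, 3 held in all 6 fits. The number that rose was 3 without Ctr replicate 1 or C4 replicate 1 or 3, and it was 1 with the Ctr and C4 arrays alone and 2 with robust eBayes. The 3 were Fads2, a desaturase of polyunsaturated fatty acids (0.57), and the sterol enzymes Nsdhl (0.32) and Fdft1 (0.24), whereas Hmgcs1 and Insig1 differed by 0.05 and -0.25 and did not pass. Fads2 and Fdft1 lost their calls with the Ctr and C4 arrays alone, and Fdft1 also with robust eBayes. The sterol regulatory element, searched as TCACNCCAC, was found before 1 of 25 genes of this list (4%, against 1.22% of all genes), and the E box CACGTG before 5 of 25 (20%, against 6.86%).

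Some subunits of the respiratory chain rose by small amounts. Of 64 measured, 62 of them over the floor, 16 rose, 1 fell and 47 were not called. The share called was 26.6%, against 17.5% of genes over the floor and 29.9% of genes with a mean of 10 to 12. In all 6 fits 7 of the increases and the decrease held, and the median difference was 0.131. Without Ctr replicate 2 only 8 rose, and 10 without C4 replicate 1 or 2; the number was 7 with the Ctr and C4 arrays alone and 4 with robust eBayes. Uqcrh, the hinge subunit of complex III, rose by 0.64 (SE 0.059, adjusted p = 0.00187), from 11.86, 11.93 and 12.03 to 12.51, 12.68 and 12.56. Sdhb, the iron-sulfur subunit of complex II, rose by 0.40 (adjusted p = 0.00132), and the complex IV and complex I subunits Cox8a and Ndufs5 by 0.30 and 0.26, the latter a call lost with robust eBayes.

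Astrocyte genes formed the list with the largest share of increases. Of 23 measured, 21 of them over the floor, 14 rose and 1 fell (65.2% called, against 17.5% of genes over the floor). In all 6 fits 9 and 1 of them held, and the median difference was 0.422. Aldh1l1, a folate enzyme used as a pan-astrocyte marker, stood at 8.1, 8.04 and 8.22 on the Ctr arrays and 9.24, 9.12 and 9.34 on the C4 arrays and rose by 1.11 (SE 0.080, adjusted p = 7.83e-04). The probe set that replaces it when names ending in _s_at, _x_at or _a_at are left out lay at the floor. Kcnj10, the inward rectifier Kir4.1 that clears extracellular potassium, rose by 1.04 (SE 0.079, adjusted p = 9.24e-04), with all C4 arrays at 9.03, 8.94 and 8.97 above the Ctr arrays at 7.97, 7.76 and 8.08. The calcium-binding protein S100b rose by 1.05. Apoe, the main apolipoprotein of the brain, rose by 0.73 (SE 0.033, adjusted p = 1.58e-04), from 13.26, 13.23 and 13.34 to 14.0, 13.98 and 14.04. The water channel of astrocyte endfeet, Aqp4, rose by 0.72 (adjusted p = 0.0108).

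The rise did not extend to all astrocyte genes. Sparcl1 (hevin), a secreted protein that promotes synapse formation, stood at 9.55, 9.42 and 9.35 on the Ctr arrays and 8.0, 8.15 and 8.1 on the C4 arrays and fell by 1.36 (SE 0.057, adjusted p = 1.43e-04). Glul, glutamine synthetase, Gja1, connexin 43, and the glutamate transporter Slc1a3 differed by -0.10, 0.09 and 0.31 and did not pass. Slc1a2, the main glutamate transporter of mature astrocytes, differed by 0.55 (adjusted p = 0.246).

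**Figure D5:**
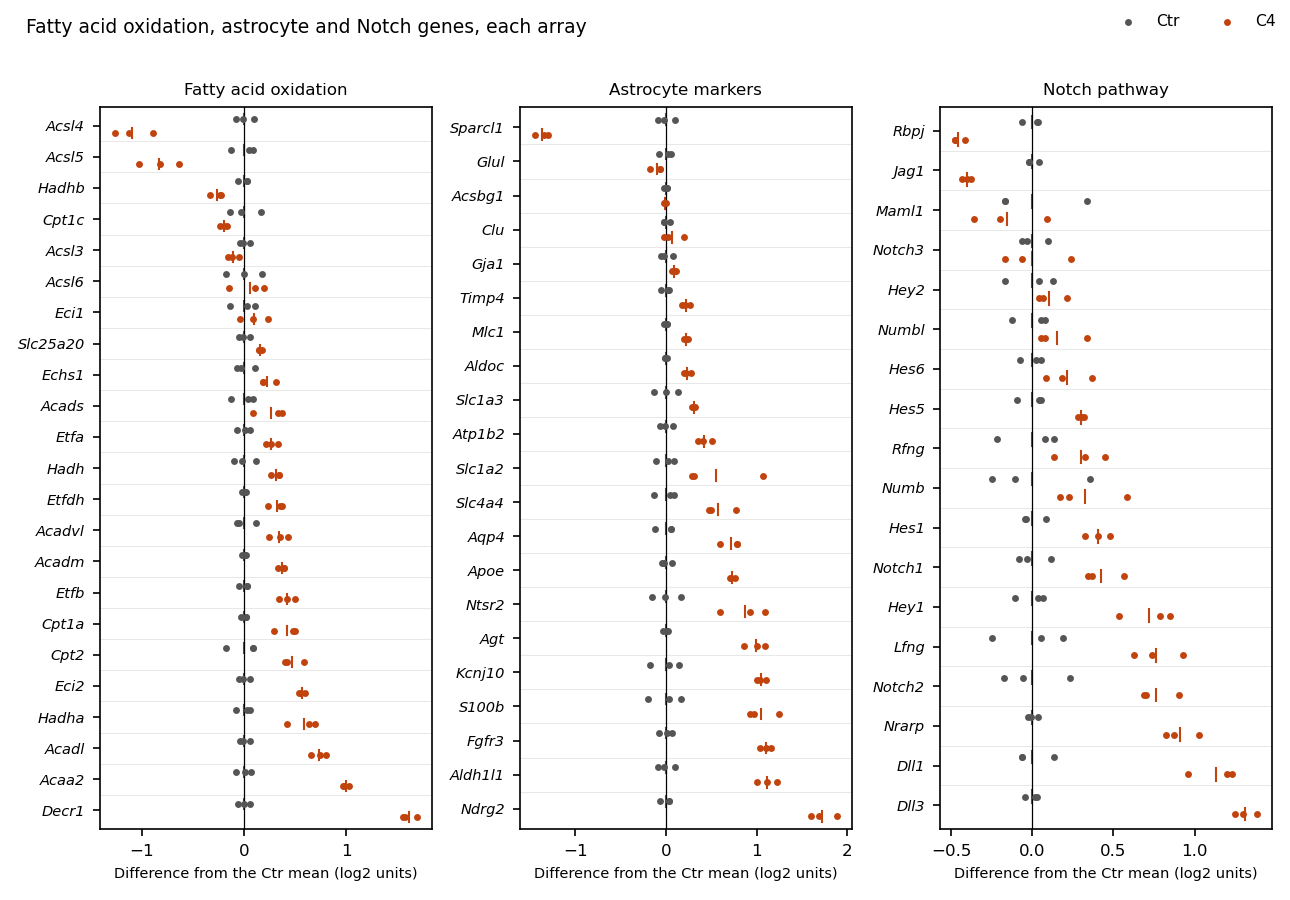
Difference of each array from the Ctr mean (log2 units, horizontal axis) for genes of fatty acid oxidation, astrocytes and the Notch pathway that were over the floor, with Ctr arrays in grey, C4 arrays in orange and vertical ticks at the C4 means. Decr1, Ndrg2 and Dll3 show the widest gaps to the right in their panels, and Acsl4, Sparcl1 and Rbpj lie to the left.

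Oligodendrocyte genes rose in part. Of 20 measured, 7 rose, 5 in all 6 fits and 4 with the Ctr and C4 arrays alone, and none fell; 11 were near the floor in both conditions. By stage, 5 of 9 genes of precursors and 2 of 11 genes of myelinating cells rose. Near the floor in both conditions were 2 of the precursor genes and 9 of the genes of myelinating cells. These counts therefore do not compare the stages. Bcas1, expressed in newly formed oligodendrocytes, rose by 0.67 (adjusted p = 0.00502) and the transcription factor Olig1 by 0.26 (adjusted p = 0.00981, lost with the Ctr and C4 arrays alone). Omg, the oligodendrocyte myelin glycoprotein, stood at 7.56, 7.17 and 7.33 on the Ctr arrays and 8.91, 9.02 and 8.93 on the C4 arrays and rose by 1.60 (SE 0.095, adjusted p = 3.71e-04), and the myelin enzyme Cnp rose by 0.44. Pdgfra and Cspg4, defining markers of precursors, were higher by 0.94 and 0.61, with calls lost without Ctr replicate 1 or 3 or C4 replicate 2 and lost without Ctr replicate 1, 2 or 3 or C4 replicate 2, respectively.

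The list of neural stem and progenitor genes gave 4 higher and 2 lower of 21, of which Pax6, Fabp7 and Hmga2 held in all 6 fits. The number higher was 2 without Ctr replicate 1, 2 or 3 or C4 replicate 2 or 3, and the number lower 1 without Ctr replicate 1 or 2 or C4 replicate 2 or 3. Hmga2, a chromatin protein of young stem cells, fell by 1.28 (SE 0.17, adjusted p = 0.00758), from 7.3, 7.1 and 6.99 to 5.85, 6.16 and 5.53. Of 28 genes of neuroblasts and neurons 20 were near the floor in both conditions, 2 rose and 2 fell, 2 and 1 of them in all 6 fits. Their share called was 14.3%, against 9.2% of all genes. Stmn1, a microtubule-destabilising protein of immature neurons and dividing cells, rose by 0.62 (SE 0.024, adjusted p = 1.20e-04). Calb1, the calcium buffer calbindin, fell by 1.82 to the floor (adjusted p = 0.00648), and Gad1, which makes GABA, differed by -0.37 (adjusted p = 0.0152, lost without Ctr replicate 1 or C4 replicate 1 or 2). The lists of other cell types held few signals: 0 of 11 endothelial and 0 of 10 ependymal genes were called, 1 of 15 microglia and macrophage genes (Cd68) fell, 1 of 12 genes of pericytes and fibroblasts (Cspg4) was higher, and of 8 genes of olfactory ensheathing cells Fabp7 rose and Matn2 differed by -0.36, a call lost without Ctr replicate 2 or C4 replicate 2.

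Several feedback inhibitors of ERK signalling fell. Of 19 genes of the ERK feedback and ETV list, 6 fell and 1 rose, 4 and 1 of them in all 6 fits. Spry4, a sprouty protein that blocks the activation of RAS by receptors, stood at 10.5, 10.41 and 10.06 on the Ctr arrays and 9.01, 8.72 and 8.87 on the C4 arrays and fell by 1.46 (SE 0.13, adjusted p = 0.00145). Spry1 fell by 0.62 (SE 0.044, adjusted p = 7.66e-04), the ERK phosphatase Dusp6 by 0.57 (SE 0.042, adjusted p = 8.75e-04) and Spred2 by 0.45, the last a call lost with robust eBayes, under which 3 members of the list were lower. The transcription factor Etv5, a target of FGF signalling, differed by -0.50 (adjusted p = 0.027, lost without Ctr replicate 1, 2 or 3 or C4 replicate 1 or 2), and Etv4 differed by 0.31. Flrt2, a transmembrane partner of FGF receptors, rose by 1.37 (SE 0.16, adjusted p = 0.00433). The number that rose was 2 without Ctr replicate 3 and 4 without C4 replicate 1.

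Immediate early genes, the first transcripts to follow ERK activity, did not fall as a group: 6 of 30 rose and 2 fell, all in every fit with 1 array left out. Fos stood at 12.66, 12.61 and 12.69 on the Ctr arrays and 13.2, 13.19 and 13.2 on the C4 arrays and rose by 0.55 (SE 0.028, adjusted p = 2.34e-04). The nuclear receptor Nr4a1 rose by 0.70, the zinc finger factors Egr1 and Egr2 by 0.50 and 0.48, Ier2 by 0.58 and the antiproliferative gene Btg2 by 0.84. Ier3, an ERK-induced survival gene, went the opposite way, from 10.28, 10.23 and 10.35 to 8.77, 8.79 and 8.77, a difference of -1.51 (SE 0.028, adjusted p = 7.16e-06), and Ier5 fell by 0.35, a call lost with robust eBayes. The study also measured Ier3 by RT-qPCR and does not report it as lower in C4 aOBSC. The number of immediate early genes that fell was 4 without C4 replicate 3. Jun and Dusp1 differed by 0.01 and -0.11 and did not pass.

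Of 34 genes of the FGF and EGF systems, 19 were near the floor in both conditions, 4 rose and 2 fell, and 3 of the increases and neither decrease held in all 6 fits. Fgfr3, an FGF receptor of astrocyte precursors, stood at 8.6, 8.74 and 8.69 on the Ctr arrays and 9.78, 9.72 and 9.84 on the C4 arrays and rose by 1.10 (SE 0.099, adjusted p = 0.00176), and Fgf13, an intracellular FGF homologue, rose by 0.88. Fgfr1 differed by -0.58 (adjusted p = 0.0255, lost without Ctr replicate 1, 2 or 3 or C4 replicate 2). The adaptor Shc1 differed by -0.51, a call lost without Ctr replicate 1, 2 or 3 or C4 replicate 1, 2 or 3, and Fgfr2 by 0.28 without passing.

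The Notch pathway held more increases than decreases: of 24 measured, 9 rose and 2 fell, 5 and 2 of them in all 6 fits, with a median difference of 0.257. That is 45.8% called, against 17.5% of genes over the floor, where 18 lay. The ligand Dll3, which acts within the cell to damp Notch signalling, stood at 5.88, 5.94 and 5.95 on the Ctr arrays and 7.21, 7.17 and 7.3 on the C4 arrays and rose by 1.31 (SE 0.071, adjusted p = 2.92e-04). Dll1, an activating ligand of differentiating neighbours, rose by 1.13 (SE 0.13, adjusted p = 0.00421). Of the receptors, Notch2 rose by 0.76 (adjusted p = 0.00979, lost with the Ctr and C4 arrays alone) and Notch1 was higher by 0.43 (adjusted p = 0.0188, lost without Ctr replicate 1 or 2). Of the targets Nrarp, a feedback inhibitor, rose by 0.91 (SE 0.053, adjusted p = 3.63e-04) and the repressor Hey1 by 0.72, while Hes1 and Hes5 were higher by 0.40 and 0.30, with calls lost without Ctr replicate 2 or 3 or C4 replicate 1 or 2 and lost without C4 replicate 2, respectively. Rbpj, the DNA-binding partner of all Notch receptors, fell by 0.46 (SE 0.038, adjusted p = 0.0013).

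Among 26 genes of the BMP pathway, 4 rose and 1 fell, all in every fit with 1 array left out, while no BMP ligand (of 5) and no inhibitor, secreted, at the membrane or in the cell (of 7), was called. However, 4 of these ligands and 5 of these inhibitors were near the floor in both conditions and could hardly be called. Id proteins, which block basic helix-loop-helix factors, split. Id4 stood at 6.49, 6.49 and 6.45 on the Ctr arrays and 7.69, 8.01 and 8.11 on the C4 arrays and rose by 1.46 (SE 0.11, adjusted p = 8.75e-04), and Id3 rose by 1.05 (SE 0.074, adjusted p = 7.29e-04). In contrast Id2 fell by 0.97 (SE 0.082, adjusted p = 0.00139), from 11.56, 11.59 and 11.46 to 10.65, 10.58 and 10.49, and Id1 differed by 0.28 (adjusted p = 0.0655). The number that fell in this list was 2 without Ctr replicate 1 or 2. The receptor Bmpr1b rose by 0.81 and the signal transducer Smad5 by 0.53, the latter a call lost with the Ctr and C4 arrays alone.

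Cell adhesion changed in single genes. Of 30 integrins and matrix glycoproteins 5 fell and 2 rose, the decreases in all 6 fits. Itga8, an integrin subunit, stood at 4.91, 4.87 and 4.47 on the Ctr arrays and 2.41, 2.38 and 2.6 on the C4 arrays and fell by 2.28 to the floor (SE 0.21, adjusted p = 0.00187). Npnt, nephronectin, the matrix ligand of that integrin, stood at 8.42, 8.49 and 8.21 on the Ctr arrays and 6.34, 6.34 and 6.6 on the C4 arrays and fell by 1.95 (SE 0.095, adjusted p = 2.04e-04). Receptor and ligand were thus both lower on all 3 C4 arrays, as was every gene called lower. Itga4, another integrin subunit, fell by 0.83 and the matricellular protein Sparc by 0.39, while Agrn, agrin, rose by 0.49 (adjusted p = 0.0104), a call lost with the Ctr and C4 arrays alone, where 0 members rose. No collagen (of 28, 20 of them near the floor in both conditions) was called. Of 10 laminins Lamb2 differed by -0.34, a call lost without Ctr replicate 2 or 3 or C4 replicate 1, 2 or 3. Without C4 replicate 1, 1 member of the list of collagens and laminins was called higher.

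Inhibitors of matrix proteases changed in opposite directions. Timp1 stood at 7.27, 7.21 and 7.26 on the Ctr arrays and 5.84, 5.37 and 5.36 on the C4 arrays and fell by 1.73 (SE 0.13, adjusted p = 9.44e-04), whereas Timp3 rose by 1.18 (SE 0.069, adjusted p = 3.63e-04), from 6.96, 6.74 and 6.74 to 8.01, 8.07 and 7.92. In the list of 31 proteases and inhibitors 4 fell and 2 rose, 3 and 1 of them in all 6 fits. No protease rose, but 18 of 26 were near the floor in both conditions. The metalloproteinase Adamts1 fell by 0.67 (adjusted p = 0.00351).

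Of 28 cadherins and protocadherins 4 rose and 2 fell (21.4% called, against 9.2% of all genes and 17.5% of genes over the floor). In all 6 fits 3 of the increases and neither decrease held. The number that fell was 0 without Ctr replicate 1 or 3 or C4 replicate 1 or 2 and 1 without Ctr replicate 2 or C4 replicate 3. Cdh11, a mesenchymal type cadherin, stood at 5.4, 5.28 and 5.57 on the Ctr arrays and 7.15, 7.13 and 7.0 on the C4 arrays and rose by 1.68 (SE 0.092, adjusted p = 3.00e-04), and Pcdh19 and Pcdh9 rose by 0.54 and 0.44; Pcdh9 lost its call with the Ctr and C4 arrays alone and with robust eBayes, each of which left 2 increases. Adhesion molecules of the immunoglobulin superfamily held more calls, 10 higher and 4 lower of 35, of which 5 and 2 held in all 6 fits; the number higher was 6 without Ctr replicate 1, 2 or 3, and the number lower 2 without Ctr replicate 1 or 3 or C4 replicate 1 or 2. Vcam1, which anchors stem cells in their niche, stood at 7.09, 7.24 and 7.29 on the Ctr arrays and 8.76, 8.83 and 8.86 on the C4 arrays and rose by 1.60 (SE 0.087, adjusted p = 2.92e-04). Pvr, the poliovirus receptor, stood at 8.07, 8.15 and 8.12 on the Ctr arrays and 6.82, 6.91 and 6.82 on the C4 arrays and fell by 1.26 (SE 0.036, adjusted p = 3.53e-05). The study lists RT-qPCR primers for Pvr and does not report it as lower by that method. The neurite adhesion molecules Cntn1, Ntm and Nrcam rose by 0.60, 0.59 (a call lost with the Ctr and C4 arrays alone) and 0.37, and Kirrel3 fell by 0.63.

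Several transmitter receptors rose. Of 33 receptor subunits for glutamate and GABA, 20 were near the floor in both conditions, 7 rose, 5 of them in all 6 fits, and none fell. Grm3, the metabotropic receptor mGluR3 of glia, stood at 6.9, 6.91 and 6.86 on the Ctr arrays and 8.84, 9.1 and 8.88 on the C4 arrays, a 4.14-fold increase (log2 difference 2.05, SE 0.086, adjusted p = 1.43e-04). The NMDA receptor subunit Grin3a rose by 1.24 (SE 0.099, adjusted p = 0.0011), the AMPA subunits Gria2 and Gria4 by 0.75 and 0.64, and the GABA-A subunit Gabra4 by 0.90. Gabbr1, a GABA-B subunit, was higher by 1.08 (adjusted p = 0.021, lost without Ctr replicate 2 or 3 or C4 replicate 2 or 3), and Grm5 differed by 0.02 without passing.

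Proteins of synaptic vesicle release were mostly near the floor, 24 of 42, with 3 higher and 1 lower (9.52% called, near the 9.2% of all genes), each in every fit with 1 array left out. The presynaptic adhesion molecule Nrxn3 rose by 1.32 (SE 0.19, adjusted p = 0.00981), a call lost with the Ctr and C4 arrays alone, and Syt11, a synaptotagmin that does not bind calcium, by 0.36. Potassium channel subunits, 23 of 36 near the floor in both conditions, gave 5 higher and 1 lower (16.7% called, against 9.2% of all genes), 4 and 1 of them in all 6 fits. The number higher was 3 with the Ctr and C4 arrays alone and 3 with robust eBayes. Kcnd2 (Kv4.2), which carries A-type current, rose by 0.78 (SE 0.056, adjusted p = 7.62e-04), the accessory subunit Kcnmb4 by 0.73 and the glial partner of Kir4.1, Kcnj16, by 0.31 (a call lost in both of these settings), whereas Kcnc1 (Kv3.1) fell by 0.60 (adjusted p = 0.00422).

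Among the semaphorin guidance genes the calls fell on receptors: of 11 plexins and neuropilins 3 rose and 1 fell, all in every fit with 1 array left out. None of 20 semaphorins was called, but 12 of them were near the floor in both conditions and could hardly be called. Of the 11 receptors 2 were near the floor. Plxnb1 stood at 4.43, 4.74 and 4.52 on the Ctr arrays and 6.0, 5.95 and 6.21 on the C4 arrays and rose by 1.49 (SE 0.12, adjusted p = 9.82e-04), Plxnb3 and Plxnc1 rose by 0.66 and 0.49, and Nrp1, a receptor shared with VEGF, fell by 0.65. In the ephrin, netrin and Slit systems 4 of 41 genes fell and 1 rose (12.2% called, against 9.2% of all genes), 1 and 1 of them in all 6 fits, and the number that fell was 1 without C4 replicate 2 and 2 without Ctr replicate 1 or C4 replicate 1 or 3. Ntn4, a secreted netrin, fell by 0.37 (adjusted p = 0.012) and passed in all 6 fits, but not with the Ctr and C4 arrays alone, where 0 genes of the list fell or rose, nor with robust eBayes.

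Genes that limit growth did not rise as a group. Of 21 FOXO factors and targets 6 fell and 1 rose, all in every fit with 1 array left out. Gadd45a, which responds to DNA damage, fell by 0.91 (SE 0.073, adjusted p = 0.00116), from 8.85, 8.97 and 8.91 to 8.1, 7.98 and 7.92. Foxo3 itself fell by 0.53 (SE 0.031, adjusted p = 3.71e-04), Ccng2, a cyclin of arrested cells, by 0.61, the insulin receptor Insr by 0.53 and the thioredoxin inhibitor Txnip by 0.38, whereas Sesn3 rose by 0.59. The forkhead motif GTAAACA was present before 3 of 18 genes of this list with a promoter (16.7%), against 3.54% of all genes. Of the 3, Txnip was called. Bcl2l11 and Trim63 were not, each with a difference of 0.00, and dim probe sets have nearly equal values, so these missing calls say little. The E box CACGTG was before 4 of the 18 (22.2%, against 6.86%). Of 18 p53 targets Plk2, Cdkn1a (p21) and Ccng1 fell by 0.77, 0.45 and 0.31, in all 6 fits (Ccng1 not with the Ctr and C4 arrays alone), and Ei24 was higher by 0.27, a call lost without Ctr replicate 1, 2 or 3 or C4 replicate 2 or 3. For the p53 targets this is 22.2% called, against 17.5% of genes over the floor, where 15 of them lay. In the Bcl2 family and caspases 5 of 25 fell and 1 rose, but only the BH3 protein Bid (-0.56, adjusted p = 0.00866) and Bnip3 kept their calls in all 6 fits. The number that fell was 2 without C4 replicate 2 or 3 and 3 without Ctr replicate 2 or 3 or C4 replicate 1, and it was 2 with the Ctr and C4 arrays alone and 2 with robust eBayes.

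Cell cycle genes differed by small amounts. Of 23 genes of G1, 18 of them over the floor, 3 rose and 2 fell, 2 and 2 of them in all 6 fits. The share called was 21.7%, against 17.5% of genes over the floor. With the Ctr and C4 arrays alone 1 rose. Ccnd1, the mitogen-induced cyclin D1, stood at 12.56, 12.6 and 12.47 on the Ctr arrays and 12.01, 11.99 and 12.2 on the C4 arrays and fell by 0.48 (SE 0.064, adjusted p = 0.00759), and the CDK inhibitors Cdkn2b and Cdkn2c rose by 0.47 and 0.46 (the latter a call lost in that setting) while Cdkn1b differed by -0.40 without passing. Of 41 DNA replication genes, 40 of them over the floor, 7 rose and 2 fell, with a median difference of 0.193. That is 22% called, against 17.5% of genes over the floor. However, the number that rose was 2 without Ctr replicate 2 or C4 replicate 2, 3 without Ctr replicate 1 or C4 replicate 1 and 4 without Ctr replicate 3. It was 3 with the Ctr and C4 arrays alone and 1 with robust eBayes. Pcna, the polymerase clamp, rose by 0.48 (SE 0.040, adjusted p = 0.00132) and Mcm7 by 0.22 (a call lost with robust eBayes), and Cdt1, which licenses origins, fell by 0.37, all in every fit with 1 array left out. Of 32 mitosis genes, all over the floor, 6.25% were called, against 9.2% of all genes and 17.5% of genes over the floor. Nusap1 rose by 0.22 (not with robust eBayes) and Ect2 fell by 0.53 (not with the Ctr and C4 arrays alone). Mki67, Top2a and Cdk1 differed by 0.23, -0.05 and -0.01 and did not pass. The number of mitosis genes that rose was 3 without Ctr replicate 3, and the number that fell 2 without Ctr replicate 2 or C4 replicate 3.

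Protein quality genes were mixed. Of 25 heat shock proteins and cochaperones 5 rose and 3 fell, 3 and 2 of them in all 6 fits, and the number that rose was 3 without Ctr replicate 2 or 3 or C4 replicate 1, 2 or 3, and it was 2 with the Ctr and C4 arrays alone and 3 with robust eBayes. Cryab, the small heat shock protein alphaB-crystallin, stood at 8.3, 8.44 and 8.44 on the Ctr arrays and 9.78, 9.97 and 9.82 on the C4 arrays and rose by 1.47 (SE 0.088, adjusted p = 3.99e-04) in all 6 fits. The probe set that replaces it when names ending in _s_at, _x_at or _a_at are left out lay at the floor. The cochaperones Dnaja1 and Dnajb6 rose by 0.38 and 0.33 (Dnajb6 not with the Ctr and C4 arrays alone), and Hsp90aa1 and the mitochondrial chaperonin Hspd1 fell by 0.30 and 0.21 (Hspd1 not with robust eBayes). In the ER unfolded protein response 2 of 23 fell and 1 rose (13% called, against 9.2% of all genes and 17.5% of genes over the floor). Of the 23 members, 20 lay over the floor. Herpud1 alone held in all 6 fits (-0.36, adjusted p = 0.00885), though not with robust eBayes. The ER chaperone Hspa5 (BiP) differed by 0.19. Lysosomal genes gave 6 higher and 6 lower of 46, 3 and 4 in all 6 fits, and the number higher was 3 without Ctr replicate 2 or 3 or C4 replicate 2 or 3, and it was 3 with the Ctr and C4 arrays alone and 3 with robust eBayes; 3 were lower with robust eBayes. Naglu, a hydrolase of heparan sulfate, fell by 0.89 (SE 0.054, adjusted p = 4.25e-04), from 8.76, 8.72 and 8.73 to 7.91, 7.89 and 7.73, and Gm2a, the activator of ganglioside breakdown, rose by 0.77 (SE 0.073, adjusted p = 0.00212). In the list on interferon, STING and antigen presentation 4 of 40 fell and 1 rose (12.5% called, against 9.2% of all genes), 2 and 1 of them in all 6 fits, and the number that fell was 2 without Ctr replicate 1 or 2 or C4 replicate 1, 2 or 3, and 2 with the Ctr and C4 arrays alone. Ifitm3, a membrane protein that blocks viral entry, stood at 11.02, 11.01 and 11.03 on the Ctr arrays and 10.28, 10.24 and 10.23 on the C4 arrays and fell by 0.77 (SE 0.024, adjusted p = 5.14e-05), and Ifi27 rose by 0.54. No gene of antigen presentation (of 10, 5 of them near the floor in both conditions) was called.

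Of 34 genes of neurotrophic factors and the IGF system 6 fell, all in every fit with 1 array left out, and 2 rose, 1 of them in all 6 fits. Bdnf stood at 5.9, 5.75 and 5.89 on the Ctr arrays and 4.98, 4.78 and 4.97 on the C4 arrays and fell by 0.94 (SE 0.071, adjusted p = 9.11e-04), whereas its receptor Ntrk2 (TrkB) stood at 10.15, 10.17 and 10.19 on the Ctr arrays and 10.77, 10.79 and 10.82 on the C4 arrays and rose by 0.62 (SE 0.042, adjusted p = 6.53e-04). The C4 arrays lay below all Ctr arrays for the ligand and above them for the receptor, a separation that every called gene showed. Igfbp3, a secreted IGF-binding protein, fell by 0.96 (SE 0.059, adjusted p = 4.51e-04), but the study, which measured it by RT-qPCR, does not report it as lower in C4. Igf2r, the cation-independent mannose 6-phosphate receptor, fell by 0.80. The receptor Ntrk3 fell by 0.29 (a call lost with the Ctr and C4 arrays alone and with robust eBayes), and Igf1r differed by 0.09. Wnt genes showed 2 higher and 2 lower of 47 (8.51%), against 9.2% of all genes called: the ligand Wnt7a rose by 0.72 (adjusted p = 0.00747) and the receptors Fzd4 and Fzd5 fell by 0.61 and 0.52, all in every fit with 1 array left out; the number that rose was 1 without Ctr replicate 1, 2 or 3, and 0 fell with robust eBayes.

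Of the NDRG, TTYH and protein kinase C families 6 of 15 rose and 1 fell, 5 and 1 of them in all 6 fits. All 3 Tweety anion channel proteins rose: Ttyh1 stood at 8.01, 8.28 and 8.34 on the Ctr arrays and 10.13, 10.15 and 10.1 on the C4 arrays and rose by 1.91 (SE 0.084, adjusted p = 1.44e-04), Ttyh2 by 1.08 and Ttyh3 by 0.47. Of 24 acid-base transport genes 4 rose and 2 fell, 1 and 2 of them in all 6 fits, and the number that rose was 1 without Ctr replicate 2 and 2 without Ctr replicate 1 or C4 replicate 2, and it was 1 with the Ctr and C4 arrays alone and 2 with robust eBayes. Slc9a3r1, a scaffold of sodium-proton exchangers, rose by 0.82 (adjusted p = 0.0072) and passed in all 6 fits but not with the Ctr and C4 arrays alone, and the carbonic anhydrase Car3 fell by 0.33. Of 28 imprinted genes 2 rose and 1 fell (10.7% called, near the 9.2% of all genes), 1 of the increases in all 6 fits, and 14 were near the floor in both conditions; Peg3 was higher by 0.45 (adjusted p = 0.0288, lost without Ctr replicate 1, 2 or 3).

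Some of the largest differences lay outside these pathways. Diras2, a small GTPase of the RAS superfamily, stood at 8.84, 8.88 and 8.92 on the Ctr arrays and 7.3, 7.39 and 7.4 on the C4 arrays and fell by 1.51 (SE 0.060, adjusted p = 1.22e-04). RT-qPCR primers for Diras2 are listed by the study, which does not report it as lower by that method. Stc1, the secreted glycoprotein stanniocalcin 1, fell by 1.58 (SE 0.099, adjusted p = 4.85e-04), from 7.56, 7.6 and 7.42 to 5.82, 6.14 and 5.89. Anxa4, a calcium-dependent phospholipid-binding protein, fell by 1.53 to the floor (adjusted p = 0.00108). Cyp2j9, a cytochrome P450 of the arachidonate-metabolising 2J family, rose by 1.52 (SE 0.098, adjusted p = 5.52e-04), from 5.92, 6.24 and 6.04 to 7.62, 7.65 and 7.48. Trim2, a ubiquitin ligase, differed by -1.59 (SE 0.34, adjusted p = 0.043), a call lost without Ctr replicate 1, 2 or 3 or C4 replicate 1 or 3. Hpse, heparanase, differed by -1.46 with a C4 mean near the floor, so that the size is a minimum (SE 0.26, adjusted p = 0.0252), a call lost without Ctr replicate 1, 2 or 3 or C4 replicate 2.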

How the data were processed

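RNA of Ctr, C2 and C4 neurospheres was hybridised to Affymetrix mouse genome arrays, 3 for each condition. The deposited table holds log2 values that the authors made from the probe intensities with GCRMA, whose version is not given in the sources used here. GCRMA gives dim probe sets nearly equal values, so small differences near the floor cannot be read, and no depth exists for arrays, where their number limits the precision. No column was left unused. Probe sets were named from the platform annotation (34945 with 1 symbol, 932 with several, which were not named, and 9160 with none), and 34741 were matched to RefSeq (GRCm38.p6), which supplied symbols and promoters. A further promoter window with a motif is not reported here.

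All 9 arrays entered limma 3.58.1 (R 4.3.3) with a mean per condition and an intensity trend in the variance. The Benjamini-Hochberg adjustment ran over 45037 probe sets and the threshold was 0.05, so each adjusted p is limma's over all probe sets. The script was tested on simulated data. The 49 lists (1467 entries, 1374 measured) and the rule for named genes (the largest differences among called genes, and called and defining members of the lists) were chosen with earlier results of these data known, so no list is independent support. Of the genes in the text, 50 fall outside that rule and were named after their values were seen. Alternatives were the Ctr and C4 arrays alone, a replicate block, no trend, robust eBayes, a filter on dim probe sets, a stricter call, rescaled arrays, other choices of probe set, and leaving out each array.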

Additional observations from a re-analysis of the deposited data

How the results depend on the processing

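Against 1673 genes called (1027 higher, 646 lower) and 2833 probe sets (1702 and 1131), the Ctr and C4 arrays alone gave 974 genes (584 and 390) and 1618 probe sets (959 and 659). Robust eBayes gave 835 genes (504 and 331) and 1386 probe sets (827 and 559), and a filter on dim probe sets 2655 genes (1616 and 1039) and 4697 probe sets (2818 and 1879). The stricter call, a difference of at least 1 with an adjusted p under 0.01, left 133 genes (83 and 50) and 230 probe sets (135 and 95). With rescaled arrays 1012 genes and 1840 probe sets were lower. Without 1 array, 1087 to 1496 genes (626 to 994 higher, 461 to 544 lower) and 1818 to 2585 probe sets (1052 to 1731 higher, 766 to 922 lower) passed. Of the 1673 genes, 918 were shared with the Ctr and C4 arrays alone, 835 with robust eBayes and 1631 with the filter, in the same direction; the cause of these shifts was not tested.

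Of 216 called genes named here, 25 lost their call without at least 1 array, 39 with the Ctr and C4 arrays alone, 34 with robust eBayes, and 0 with rescaled arrays. With the mean over probe sets 17 lost their call, and beside them Cpt1a differed by -0.015. Without probe sets whose names end in _s_at, _x_at or _a_at, 13 lost their call. Beside them Aldh1l1, Cryab and Mgll differed by 0.000, since the remaining probe set lay at the floor. Among all genes, 4 were called in the opposite direction in this setting. Calls lost through the choice of probe set are not marked beside the values.

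With the replicate number as a block 1188 genes passed, of which 1102 were shared, and 22 of the 216 named genes lost their call. Same-numbered Ctr and C4 arrays had correlations of their deviations of 0.126, -0.013 and 0.053, so the numbers were not taken to pair the arrays. Arrays have no read depth; genes near the floor could hardly be called (0.452% with a mean under 4).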
